A study of Mus musculus with 6 samples.

Results

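Integrins and laminins are the 2 sides of a cell's attachment to its basement membrane, and this account covers the genes that encode their chains in HL-1 cells, a cell line derived from a mouse atrial tumour that keeps features of atrial heart muscle cells. Members were taken by symbol from GENCODE mouse release M21: protein-coding genes named Itga, Itgb, Lama, Lamb or Lamc followed by a digit, and Itgav. The account covers 32 such chains, 22 of integrins and 10 of laminins, among 38087 gene IDs in the deposited tables. The same pattern also takes Itgb3bp, which encodes a centromere protein named for its binding to an integrin tail. It is no chain and was left out of every count. Its log2 fold change was 0.22 (SE 0.09; edgeR adjusted p = 0.0523).

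The treated group of cells received an siRNA at 100 nM that targets Circ-INSR, a circular transcript named after the insulin receptor gene. The control group received a scrambled siRNA. Poly(A)-selected mRNA was sequenced in 3 libraries per group, all from the same line, with 1 targeting and 1 control siRNA named. Nothing in the labels ties the libraries to separate cultures, and p-values then measure only how far these samples spread, possibly for technical reasons. Poly(A) libraries do not show the circular RNA itself. The counts of its host gene Insr had a log2 fold change of -0.43 (SE 0.07; edgeR adjusted p = 0.000393), and they do not measure the knockdown.

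An integrin is a pair of 1 alpha and 1 beta chain that spans the plasma membrane, binds matrix proteins outside and holds the actin cytoskeleton through talin and kindlin inside. A laminin is a cross-shaped trimer of an alpha, a beta and a gamma chain that polymerises into the sheet of the basement membrane. Laminins are numbered by their chains, so that laminin-511 holds the products of Lama5, Lamb1 and Lamc1. In heart muscle this linkage surrounds each cell, and the alpha7 beta1 integrin and dystroglycan are its best known laminin receptors there.

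Total counts per library ran from 60024750 to 77037474. Levels are in CPM, a gene's counts scaled to a common library total after that total was adjusted with edgeR's TMM factor. Positions are on mm10 (GRCm38). Control replicate 3 stood apart for long genes: those with at least 9219 exonic bases lay at a median of -0.13 (log2) relative to their average over the libraries, and at 0 to 0.05 in the other 5 libraries. The laminin chains are long, with a median exonic length of 9799 bases against 3778 for all genes tested and 6458 for the integrin chains, so values without that library are given where leaving it out ends a call, turns a direction or moves a called value by over 1.5 times. Marker genes of atrial muscle were present, with 10 of 10 tested and summed levels of 6723 to 7006 CPM in control and 7420.4 to 7542 CPM in Circ-INSR siRNA libraries, while Sln, one of those markers, averaged below 1 CPM in both groups. After Circ-INSR siRNA 4 of these markers were higher and 3 lower (adjusted p under 0.05), against 28.5% of all genes tested each way. Actc1 and Myl4 were at 0.87 and 0.86 (log2), and Tnnt2 and Gja5 at -0.73 and -0.70. In bulk RNA, fewer cells of a type and less RNA per cell cannot be told apart.

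Of the 32 chains, 29 passed the filter on low counts. After Circ-INSR siRNA 10 of them were higher and 15 lower, and 4 were not called (adjusted p under 0.05 over all genes tested, by Benjamini-Hochberg after edgeR's quasi-likelihood test). The background was high: 28.5% of the 16666 genes tested were called higher and 28.5% lower. Control and treated libraries were fully apart for 26 of the 29 chains, against 63.3% of all genes tested. The median log2 fold change was -0.14 for the 29 chains and -0.00 for all genes. Called falls of at least 1 on the log2 scale numbered 6 among the chains, where 5.57% of all genes tested fell as far. Such a rise was found for 1 chain, Lama2, and for 490 of all 16666 genes tested. Without control replicate 3 the counts were 8 higher and 16 lower, and without Circ-INSR siRNA replicate 2 they were 6 and 15.

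The chains called lower were Lama3, Lamb3, Lamb2, Lama5 and Lamc3, Itgb4 of the hemidesmosome integrin, the alpha chains Itgav, Itga8, Itga2b, Itga2, Itga6 and Itga7, and the beta chains Itgb1, Itgb6 and Itgb7. Those called higher were Lamb1, Lama2 and Lama4, the fibronectin receptor chain Itga5, the laminin receptor chain Itga3, Itga10, Itga4 and Itga9, and the beta chains Itgb3 and Itgb2. The abundant common chains moved little, with Itgb1 lower by a small margin and Lamc1 not called.

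**Figure D1:**
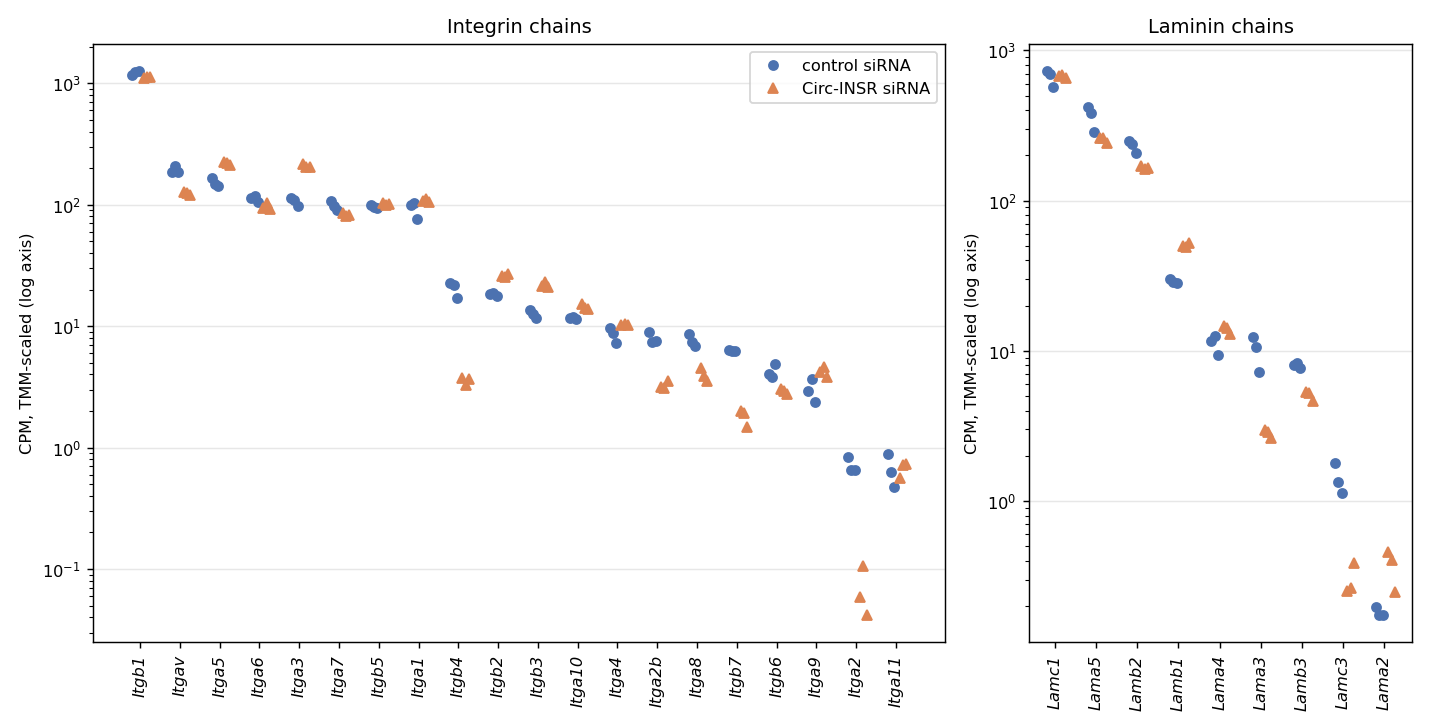
Level of each tested chain in every library, as CPM on a log axis, with integrin chains on the left and laminin chains on the right ordered by their control mean. Circles are the 3 control siRNA libraries and triangles the 3 Circ-INSR siRNA libraries. Itgb1 lies above all other chains in both groups, and Itgb4, Itgb7, Lama3, Lamc3 and Itga2 show the widest gaps between groups.

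Chains of the same class went opposite ways: Lamb1 rose while Lamb2 fell, Itga5 rose while Itgav fell, and Itga3 rose while Itga6 and Itga7 fell by smaller margins. Promoter sequences of Lamb1, Lamb2, Itga5, Itgav and Itga3 are shown so that chains that rose and fell can be compared. They are from RefSeq windows on GRCm38.p6 that begin 250 bases before a gene's start, and they are cut to end before the GENCODE transcript. Capitals mark the GC box, GGGCGG or its reverse complement, a site type bound by Sp1-family factors. The stretches lie at chr12:31265043-31265233 on the plus strand (Lamb1), chr9:108479612-108479735 on the plus strand (Lamb2), chr15:103366792-103367041 on the minus strand (Itga5), chr2:83724147-83724396 on the plus strand (Itgav) and chr11:95076802-95076964 on the minus strand (Itga3), each written 5′ to 3′ along its gene.
Lamb1: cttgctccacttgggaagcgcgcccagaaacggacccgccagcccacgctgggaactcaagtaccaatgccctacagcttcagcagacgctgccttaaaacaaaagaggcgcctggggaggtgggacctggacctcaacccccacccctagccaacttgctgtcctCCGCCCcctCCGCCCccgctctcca
Lamb2: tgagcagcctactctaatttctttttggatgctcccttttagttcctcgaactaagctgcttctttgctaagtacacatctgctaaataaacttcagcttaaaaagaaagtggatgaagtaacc
Itga5: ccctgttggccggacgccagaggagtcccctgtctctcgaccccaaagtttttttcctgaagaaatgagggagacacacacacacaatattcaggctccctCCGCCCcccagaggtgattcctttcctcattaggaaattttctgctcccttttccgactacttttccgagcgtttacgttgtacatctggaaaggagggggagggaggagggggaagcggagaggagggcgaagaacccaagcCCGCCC
Itgav: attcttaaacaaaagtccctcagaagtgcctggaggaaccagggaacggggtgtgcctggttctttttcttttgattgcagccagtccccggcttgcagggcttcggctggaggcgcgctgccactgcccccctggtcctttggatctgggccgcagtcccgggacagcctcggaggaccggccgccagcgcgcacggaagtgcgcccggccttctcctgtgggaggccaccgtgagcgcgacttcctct
Itga3: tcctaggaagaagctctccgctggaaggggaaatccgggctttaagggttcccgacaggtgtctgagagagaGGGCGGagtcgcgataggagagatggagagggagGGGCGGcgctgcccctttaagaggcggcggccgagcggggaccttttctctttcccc

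The printed stretches of Lamb1, Itga5 and Itga3 hold 2 GC boxes each, and those of Lamb2 and Itgav hold 0. This does not carry over to the other chains: the upstream stretch of Lama5, which was lower, holds 4, that of Itgb1, also lower, holds 1, that of Itgb5, not called, holds 3, and that of Itga10, which was higher, holds 0. The stretch of Lamb2 is 37.9% G and C and 124 bases long, and that of Itgav is 64.4% and 250 bases, so the pair of sequences without the motif differ in length and composition. RefSeq windows of 300 bases, 250 before and 50 after the start, were matched for 22 of the 32 chains, with 25 windows in all. Of these 25 windows 11 held GGGCGG on either strand, where 35.7% of all 32851 windows did. The full window of Itgav is 1 of them, with its GC box outside the printed stretch. The AP-1 motif TGANTCA was in 2 member windows (7.81% of all), the TEAD motif GGAATG in 3 (14.7%) and the TATA box TATAAA in 0 (13.6%). In the printed stretches no other of these motifs was found, so none overlaps a GC box. The motifs were chosen after the fold changes were known, and a match is a description of letters and not a binding site.

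Among laminin alpha chains Lama5 was by far the most abundant. It encodes the alpha chain of laminin-511 and laminin-521, which are widespread in basement membranes (chromosome 2, 180176373 to 180225859, minus strand). It had 421, 385 and 286 CPM in control replicates 1, 2 and 3, and 263, 263 and 243 CPM in Circ-INSR siRNA replicates 1, 2 and 3. Control replicate 3 was the lowest control, and the groups did not overlap. The log2 fold change was -0.51 (SE 0.14; edgeR adjusted p = 0.0227), and it was -0.65 without control replicate 3. The call was lost with no filter on low counts (adjusted p = 0.0925).

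Lama3, an alpha chain known from epithelial basement membranes (chromosome 18, 12333819 to 12583013, plus strand), had 12.4, 10.6 and 7.23 CPM in control and 2.99, 2.89 and 2.63 CPM in Circ-INSR siRNA libraries. All control libraries were higher, with control replicate 3 nearest to the treated group, and the log2 fold change was -1.83 (SE 0.18; edgeR adjusted p = 2.45e-05). Lama4, an alpha chain known from vessels and fat, was higher, with 11.7, 12.5 and 9.41 against 14.7, 14.1 and 12.9 CPM. Its rise of 0.31 (SE 0.10; edgeR adjusted p = 0.0172) was 0.20 without control replicate 3, and the call was lost without Circ-INSR siRNA replicate 1 (adjusted p = 0.0677) or 2 (adjusted p = 0.0532).

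Lama2, the alpha chain of the laminin that surrounds adult muscle fibres, was scarcely present in this line. Its counts were 12, 11 and 11 in control and 31, 31 and 18 in Circ-INSR siRNA libraries, or 0.183 ± 0.0136 and 0.373 ± 0.109 CPM (SD, n = 3 each). The groups did not overlap, and the fitted rise of 1.02 (SE 0.35; edgeR adjusted p = 0.0254) rests on these few counts. DESeq2 gave adjusted p = 0.0518, and with 1 library left out edgeR's adjusted p ran from 0.0129 to 0.0984, above 0.05 without control replicate 2 or 3 or Circ-INSR siRNA replicate 1 or 2. Lama1, the alpha chain of early embryonic laminin, had at most 4 counts in any library and was not tested.

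Of the laminin beta chains 1 was higher and 2 were lower. Lamb1, the beta chain of laminin-511 (chromosome 12, 31265234 to 31329644, plus strand), had 30.2, 28.7 and 28.2 CPM in control and 49.7, 49.1 and 52.6 CPM in Circ-INSR siRNA libraries. The libraries within each group were close, the groups lay far apart, and the log2 fold change was 0.80 (SE 0.05; edgeR adjusted p = 1.32e-07). Lamb2, the beta chain of laminin-521, which is found at the neuromuscular junction and in the kidney filter (chromosome 9, 108479736 to 108490530, plus strand), had 249.5, 238 and 206 against 171, 162 and 164 CPM. It was lower in every treated library, with a log2 fold change of -0.48 (SE 0.06; edgeR adjusted p = 5.44e-05). Lamb3, a beta chain known from skin and other epithelia (chromosome 1, 193207699 to 193343878, plus strand), had 8.03, 8.29 and 7.69 against 5.30, 5.24 and 4.61 CPM. Its groups did not overlap and its log2 fold change was -0.66 (SE 0.09; edgeR adjusted p = 4.38e-05).

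Lamc1, the gamma chain of most laminins (chromosome 1, 153218922 to 153332786, minus strand), had 727, 701 and 569 CPM in control and 678, 682 and 657 CPM in Circ-INSR siRNA libraries. The treated libraries fell inside the control range, with a log2 fold change of 0.01 (SE 0.08; edgeR adjusted p = 0.893). Without control replicate 3 the value was -0.08 and the call was lower (adjusted p = 0.0419), so the direction for Lamc1 turns on that library, and it was also below 0 with total-count scaling at -0.03 (adjusted p = 0.752). Lamc3, a gamma chain of restricted expression, was low, with counts of 108, 84 and 71 in control and 17, 20 and 28 in Circ-INSR siRNA libraries. That gave a log2 fold change of -2.22 (SE 0.26; edgeR adjusted p = 1.89e-05).

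Read by trimer, 2 of 3 chains of laminin-521 (Lama5, Lamb2, Lamc1) were lower and 0 higher, and of laminin-511 1 was higher and 1 lower. Of laminin-211 (Lama2, Lamb1, Lamc1) and laminin-411 (Lama4, Lamb1, Lamc1) 2 chains each were higher and 0 lower, and of the 2 tested chains of laminin-111 (Lama1, Lamb1, Lamc1) 1 was higher and 0 lower. Of all genes tested 28.5% were called higher and 28.5% lower. The calls for Lama2, which had few counts, and Lama4 were lost with some single libraries left out, and that for Lama5 with no filter on low counts. These trimers share chains, so their counts are not separate results. Lama3, Lamb3 and Itgb4 are chains known from the attachment sites of epithelia. Of 6 marker genes of epithelium 5 were tested, 3 were lower and 0 higher, against 28.5% of all genes tested that were called lower. The 3 lower genes were the keratins Krt8, Krt18 and Krt5. The summed level of the 6 markers was 159.9 to 178 CPM in control and 75.6 to 81.9 CPM in Circ-INSR siRNA libraries. Krt18, a keratin of simple epithelia, held most of that sum at 143 ± 8.45 CPM in control and 62.5 ± 2.61 CPM after Circ-INSR siRNA (SD, n = 3 each). Of the defining genes, Cdh1 and Krt14 averaged below 1 CPM in both groups, none was at 0 in all libraries, and Epcam was not called at -0.13 (SE 0.08; edgeR adjusted p = 0.191). The part of these genes in the result was not tested.

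**Figure D2:**
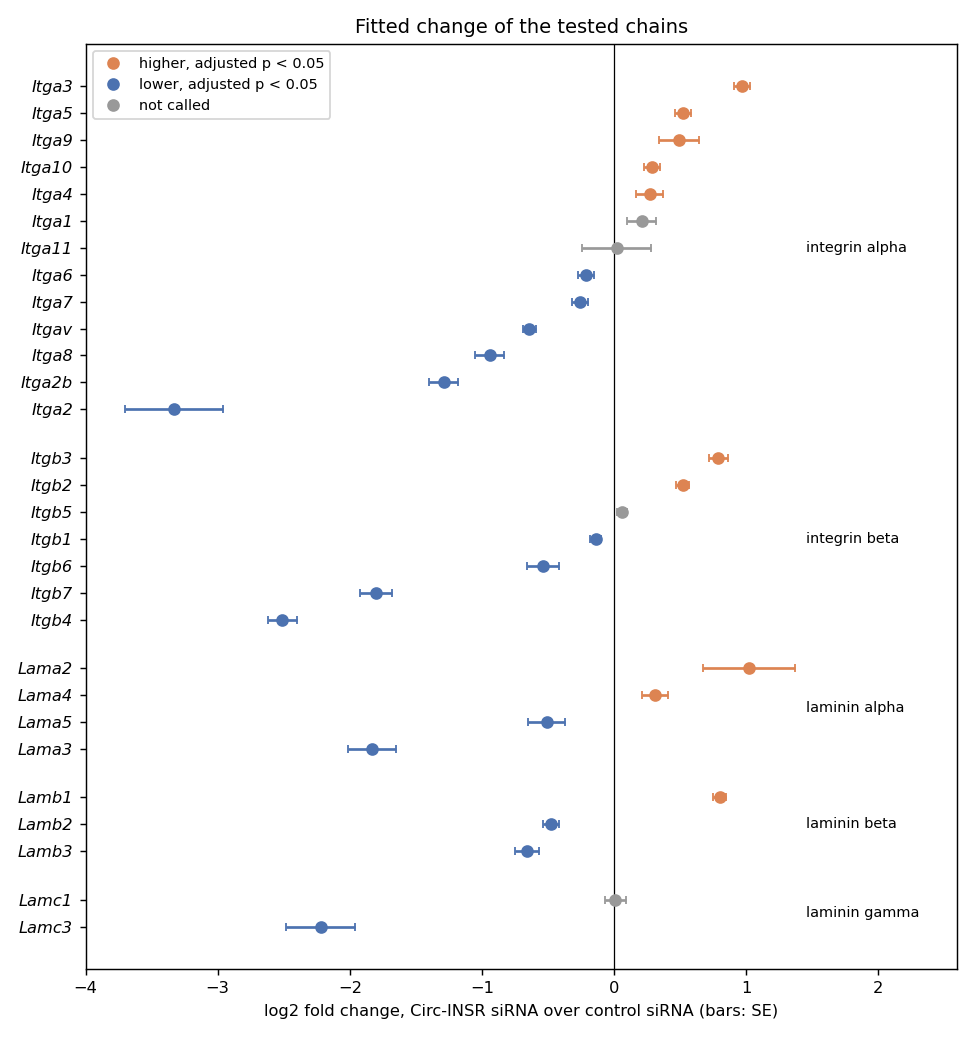
Log2 fold change of each tested chain, Circ-INSR siRNA over control siRNA, with bars for the SE, grouped by family and ordered by value. Every family except the laminin gamma chains holds points on both sides of 0 that passed the test; of the gamma chains shown Lamc3 was lower and Lamc1 was not called.

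The laminin-binding integrin alpha chains did not move together. Itga3, whose product pairs with beta1 to bind laminin-511 and other laminins (chromosome 11, 95044474 to 95076801, minus strand), had 113, 109.9 and 96.8 CPM in control and 217, 205 and 205 CPM in Circ-INSR siRNA libraries. The groups were far apart, and the log2 fold change of 0.97 (SE 0.06; edgeR adjusted p = 9.56e-08) was higher than that of the other integrin chains. Itga6, the partner of beta1 and beta4 in laminin receptors (chromosome 2, 71745616 to 71858416, plus strand), had 113, 117 and 106 against 94.4, 103 and 92.2 CPM. Itga7, the laminin receptor chain of muscle (chromosome 10, 128933818 to 128958282, plus strand), had 108, 96.8 and 91.1 against 85.2, 80.8 and 81.7 CPM. These last 2 were lower by small margins, with log2 fold changes of -0.21 (SE 0.06; edgeR adjusted p = 0.00637) for Itga6 and -0.26 (SE 0.06; edgeR adjusted p = 0.00321) for Itga7, and neither had groups that overlapped.

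Alpha chains that bind the RGD sequence of fibronectin, vitronectin and related proteins also parted. Itga5, the fibronectin receptor chain (chromosome 15, 103344286 to 103366763, minus strand), had 167, 147 and 142 CPM in control and 224, 219 and 213 CPM in Circ-INSR siRNA libraries. It was higher in every treated library, with a log2 fold change of 0.52 (SE 0.06; edgeR adjusted p = 1.43e-05). Itgav, the alpha chain shared by vitronectin receptors and the activators of latent TGF-beta (chromosome 2, 83724397 to 83806916, plus strand), had 187, 207 and 185 against 126, 125 and 121 CPM. It was lower in every treated library, at -0.64 (SE 0.05; edgeR adjusted p = 7.96e-07).

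The other RGD-binding chains were low in level and lower after Circ-INSR siRNA. Itga8, which pairs with beta1 to bind nephronectin, had 8.63, 7.35 and 6.88 against 4.49, 3.91 and 3.55 CPM, which is a log2 change of -0.94 (SE 0.11; edgeR adjusted p = 2.58e-05). Itga2b, the alpha chain of the platelet fibrinogen receptor, had 9.02, 7.39 and 7.52 against 3.17, 3.08 and 3.52 CPM, which is a log2 change of -1.29 (SE 0.11; edgeR adjusted p = 9.93e-07). Neither pair of groups overlapped. The usual partner of Itga2b is Itgb3, which rose, so the chains of that receptor went opposite ways.

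Of the 4 collagen-binding alpha chains 1 was higher and 1 lower. Itga1, the most abundant of them, had 98.5, 104 and 76.1 CPM in control and 107, 111 and 106 CPM in Circ-INSR siRNA libraries. All treated libraries lay above the controls, but the controls were spread, and the log2 fold change of 0.21 (SE 0.11; edgeR adjusted p = 0.124) was not called. Without control replicate 3 it was 0.09 (adjusted p = 0.0678). It was called by DESeq2 (adjusted p = 0.0393), without control replicate 2 (adjusted p = 0.0212), and after a length and GC trend was removed (adjusted p = 0.0161). Itga10, a collagen receptor chain of cartilage, had 11.7, 11.9 and 11.4 against 15.1, 14.1 and 13.8 CPM, with groups apart and a rise of 0.29 (SE 0.06; edgeR adjusted p = 0.00193).

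Itga2, the platelet and epithelial collagen receptor chain, lies 20995 bases from Itga1 on chromosome 13 and did not follow it. Its counts were 51, 41 and 41 in control and 4, 8 and 3 in Circ-INSR siRNA libraries, a mean of 0.715 ± 0.111 against 0.0688 ± 0.0328 CPM (SD, n = 3 each). The log2 fold change of -3.33 (SE 0.37; edgeR adjusted p = 1.16e-05) had the largest size among the chains and rests on a treated level near 3 counts, which are worth 0.0389 CPM in the deepest library. Itga11, a collagen receptor chain of fibroblasts, had 0.668 ± 0.209 and 0.675 ± 0.0960 CPM, with overlapping groups and a log2 fold change of 0.02 (SE 0.26; edgeR adjusted p = 0.95) that changed sign with total-count scaling and was -0.17 without control replicate 3.

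Itga4 and Itga9, whose products bind VCAM1, fibronectin segments and other ligands, were higher by small margins. Itga4 had 9.62, 8.75 and 7.21 against 10.2, 10.4 and 10.3 CPM, which is a log2 change of 0.27 (SE 0.10; edgeR adjusted p = 0.0312). Itga9 had 2.94, 3.66 and 2.36 against 4.21, 4.57 and 3.81 CPM, which is a log2 change of 0.49 (SE 0.15; edgeR adjusted p = 0.0141). The groups did not overlap for either. The call for Itga4 was lost without any 1 library except control replicate 1, at 0.17 without control replicate 3. It was also lost with total-count scaling (edgeR adjusted p = 0.0555) and after a length and GC trend was removed (edgeR adjusted p = 0.0521). The call for Itga9 was lost without Circ-INSR siRNA replicate 2 (edgeR adjusted p = 0.0584).

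Itgb1, the common beta chain that pairs with most alpha chains (chromosome 8, 128685654 to 128733200, plus strand), was the most abundant member. It had 1171, 1243 and 1255 CPM in control and 1093, 1122 and 1119 CPM in Circ-INSR siRNA libraries. The groups did not overlap, and the log2 fold change was -0.14 (SE 0.04; edgeR adjusted p = 0.00924), a call that was lost without Circ-INSR siRNA replicate 1 (adjusted p = 0.0619).

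Itgb4, whose long cytoplasmic tail ties hemidesmosomes to keratin filaments (chromosome 11, 115974709 to 116008412, plus strand), had 22.5, 21.6 and 16.9 CPM in control and 3.74, 3.25 and 3.70 CPM in Circ-INSR siRNA libraries. All treated libraries were far below the lowest control, at a log2 fold change of -2.51 (SE 0.11; edgeR adjusted p = 1.23e-08). Its known partner Itga6 changed far less, as given above. Where Itgb4 fell the keratins Krt8, Krt18 and Krt5 were lower as well, at -2.17, -1.20 and -1.68 (SE 0.11, 0.05 and 0.18). The other epithelial markers Epcam and Cdh1 were not called, and Krt14 was not tested.

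The beta chains that pair with alpha v went different ways. Itgb3, of the vitronectin receptor (chromosome 11, 104608000 to 104670476, plus strand), had 13.5, 12.5 and 11.7 against 21.4, 23.1 and 20.9 CPM. It was higher in every treated library, with a log2 fold change of 0.79 (SE 0.07; edgeR adjusted p = 1.91e-06). Itgb5, the most abundant of this class, had 100.2, 95.5 and 94.7 against 103, 99.1 and 101 CPM, with overlapping groups and a log2 fold change of 0.06 (SE 0.04; edgeR adjusted p = 0.258). After the length and GC trend was removed it was 0.15 and called (adjusted p = 0.000605). Itgb6, an epithelial beta chain that activates latent TGF-beta, had 4.02, 3.82 and 4.90 against 3.06, 2.95 and 2.75 CPM, which is a log2 change of -0.54 (SE 0.12; edgeR adjusted p = 0.00214). Itgb8 had 2, 6 and 2 counts in control and 0 in each Circ-INSR siRNA library, too few to test here.

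Beta chains best known from white blood cells were present at low levels. Itgb2 had 18.5, 18.7 and 17.6 CPM in control and 26.0, 25.6 and 27.0 CPM in Circ-INSR siRNA libraries, a log2 fold change of 0.52 (SE 0.05; edgeR adjusted p = 7.63e-06). Itgb7, the partner of alpha4 and alphaE, had 6.30, 6.26 and 6.21 against 2.01, 1.91 and 1.49 CPM, which is a log2 change of -1.80 (SE 0.12; edgeR adjusted p = 1.71e-07). Neither pair of groups overlapped. Itgb2l had counts of 2, 2 and 12 in control and 0 in each Circ-INSR siRNA library, and was not tested.

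The alpha chains known from white blood cells were low: Itgad, Itgal, Itgam and Itgax, which pair with beta2, and Itgae, which pairs with beta7. Of these 5 chains 3 were tested, 0 were higher and 2 lower, Itgae at -0.73 (SE 0.20) and Itgad at -1.56 (SE 0.45). Of all genes tested 28.5% were called lower. Both Itgae and Itgad averaged below 1 CPM, and with a filter of at least 1 CPM in 3 libraries 0 chains of this list were lower. Itgal was the most abundant at 2.33 ± 0.508 and 2.19 ± 0.285 CPM (SD, n = 3 each). The leukocyte marker list summed to 6.89 to 7.87 CPM in control and 3.97 to 4.49 CPM in Circ-INSR siRNA libraries, with 3 of 7 genes tested and all 3 of those lower. Of its defining genes Adgre1 was at 0 in all libraries and Ptprc, the pan-leukocyte surface phosphatase, was at 0.0322 ± 0.0319 and 0.0192 ± 0.0166 CPM. Itgb2 was therefore higher in libraries where these markers were lower.

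Levels of different chains were compared per kilobase of exonic length, over the union of all annotated exons. In control libraries the integrin alpha chains came in the order Itga5 (30.8 ± 2.72 CPM per kb), Itga3 (18.7 ± 1.51), Itgav (18.0 ± 1.15), Itga6 (12.4 ± 0.644), and Itga7 (12.2 ± 1.08; SD, n = 3 each). Itga1 came next, with 5.30, 5.61 and 4.09 CPM per kb in the 3 libraries. Itga3 and Itgav did not differ beyond their spread there, nor did Itga6 and Itga7. After Circ-INSR siRNA Itga5 led with 44.3 ± 1.15 and Itga3 followed with 36.6 ± 1.23 CPM per kb, well above Itgav at 11.5 ± 0.206, Itga6 at 10.7 ± 0.640 and Itga7 at 10.2 ± 0.289. The sum over the 13 alpha chains was 103 ± 6.81 CPM per kb in control and 125 ± 2.92 after Circ-INSR siRNA, and that over the 9 beta chains was 341 ± 9.78 and 315 ± 3.36. The beta sum therefore exceeded the alpha sum in both groups.

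Shares within a family put each chain beside its alternatives and do not depend on library scaling. Itga3 held 18.2%, 18.3% and 17.8% of the alpha chain sum in control libraries and 29.9%, 28.8% and 29.6% in Circ-INSR siRNA libraries. Itga5 went from 29.9 ± 1.37% to 35.6 ± 0.0983% (SD, n = 3 each). Itgav held 16.0%, 18.4% and 18.0% in control and 9.17%, 9.32% and 9.30% after Circ-INSR siRNA. Itga3 and Itga5 gained share where Itgav, Itga6 and Itga7 lost it. Among beta chains Itgb1 held 87.9 ± 0.765% in control and 86.6 ± 0.308% after Circ-INSR siRNA. The minor beta chains moved more relative to their size: Itgb4 went from 0.852 ± 0.143% to 0.162 ± 0.0135%, Itgb7 from 0.663 ± 0.0234% to 0.207 ± 0.0329%, Itgb3 from 0.626 ± 0.0634% to 1.17 ± 0.0605% and Itgb2 from 1.76 ± 0.0941% to 2.73 ± 0.0776%.

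For the laminins, Lamb1 rose from 6.97 ± 0.463% to 15.4 ± 0.657% of the beta chain sum, and Lamb2 went from 90.1 ± 0.629% to 82.3 ± 0.524% (SD, n = 3 each). Lama5 kept 94.4 ± 0.109% and 94.0 ± 0.156% of the alpha chain sum. For each of these shares in both families of proteins the groups did not overlap, and the exact two-sided permutation test gave p = 0.1, the smallest that 3 against 3 libraries can give. Over the 30 shares computed the Benjamini-Hochberg adjusted value was 0.125, so no share could pass 0.05.

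The summed laminin alpha level was 33.9 ± 6.49 CPM per kb in control and 23.9 ± 1.06 after Circ-INSR siRNA, and the beta sum 42.2 ± 3.83 and 33.1 ± 0.779 (SD, n = 3 each). Both sums were lower after Circ-INSR siRNA in every library. Control replicate 3 was the lowest control for both, at 26.6 and 37.9 CPM per kb.

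**Figure D3:**
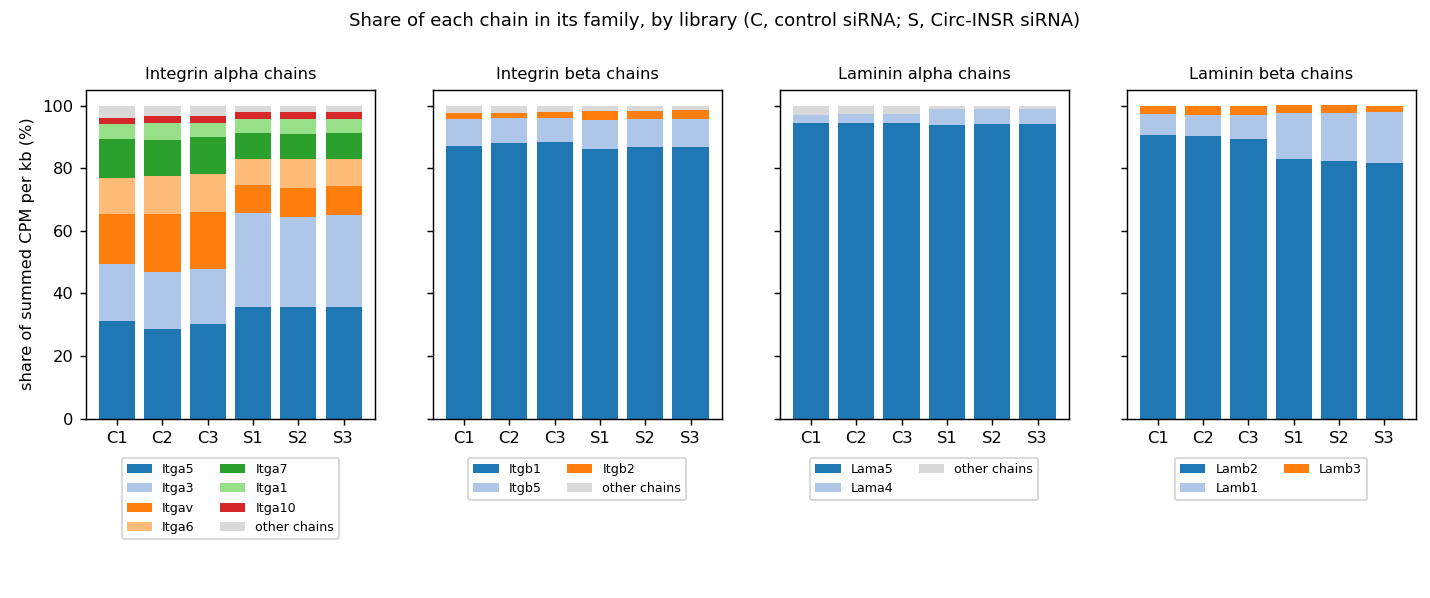
Share of each chain in the summed CPM per kb of its family, 1 bar per library (C1 to C3 control siRNA, S1 to S3 Circ-INSR siRNA), with chains of small share pooled. In the alpha integrins Itga3 widens from about 18.1% to 29.4%, and in the laminin beta chains Lamb1 from 6.97% to 15.4%.

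Partners of the chains were read from lists of genes chosen by role, against 57.0% of all genes tested that were called in either direction. Of 20 other basement membrane components 19 were tested, 3 were higher and 11 lower (73.7% called), with a median log2 fold change of -0.26. Fbln1, a fibulin that binds laminin and nidogen, had a log2 fold change of -0.89 (SE 0.04), Fbln2 of -1.05 (SE 0.13), and Sparc, a collagen-binding matrix protein, of -0.43 (SE 0.04). Nid2, a nidogen that links laminin to collagen IV, rose by 0.63 (SE 0.06). Of the genes for collagen IV, Col4a2 rose by 0.49 (SE 0.07), Col4a3 and Col4a4 were at -0.91 each (SE 0.10 and 0.11), and Col4a1 was at -0.02 (SE 0.07; edgeR adjusted p = 0.831). Col4a1 had 859, 798 and 675 CPM in control and 776, 762 and 762 CPM in Circ-INSR siRNA libraries. Control replicate 3 was the only control below the treated libraries. Without it the number of lower genes in this list was 14.

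Of 19 laminin receptors that are not integrins, with their glycosylation enzymes, 6 were higher and 9 lower (78.9% called), with a median of -0.15. Dag1, which encodes dystroglycan, the receptor that ties laminin to dystrophin, rose from 334 ± 39.5 to 623 ± 10.5 CPM (SD, n = 3 each), which is a log2 change of 0.90 (SE 0.07; edgeR adjusted p = 2.46e-06). Bcam, a receptor for the laminin alpha5 chain, fell from 272 ± 6.15 to 155 ± 3.82 CPM, which is a log2 change of -0.82 (SE 0.04; edgeR adjusted p = 2.73e-08). The syndecans, proteoglycan co-receptors, parted, with Sdc4 at -1.03 (SE 0.04) and Sdc3 at 1.94 (SE 0.13).

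Of 21 genes for other integrin ligands 18 were tested, 4 were higher and 6 lower, with a median of -0.11. That is 55.6% called, a share near that of all genes. Thbs1, thrombospondin, rose by 1.74 (SE 0.06) and Ccn2 by 0.71 (SE 0.05), while Mfge8, an RGD protein bound by alpha v integrins, was at -0.96 (SE 0.05) and Icam1, the ligand of beta2 integrins, at -0.93 (SE 0.05). Vtn, vitronectin, was lower too, from 6.94 ± 0.113 to 3.01 ± 0.319 CPM (SD, n = 3 each). Vtn and Icam1 thus went against Itgb3 and Itgb2, which are beta chains of receptors for them. Other chains of such receptors did not rise. Itgav was lower like Vtn, at -0.64 (SE 0.05), and Itgb5 was not called. Itgal, a partner of beta2, was not called at -0.09 (SE 0.17). Fn1, the fibronectin gene, was at 129 ± 26.1 and 114 ± 3.36 CPM and was not called (edgeR adjusted p = 0.367), beside the rise of Itga5. It had 145, 142 and 98.5 CPM in control and 114, 118 and 111 CPM in Circ-INSR siRNA libraries. Only control replicate 3 lay below the treated libraries. Without that library the number of lower genes in this list was 7.

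Of 42 adaptors and kinases that work at integrin tails 40 were tested, 18 were higher and 8 lower (65.0% called), with a median of 0.04. Tgfb1i1, the paxillin relative Hic-5, rose from 41.4 ± 0.877 to 99.5 ± 1.78 CPM (SD, n = 3 each), which is a log2 change of 1.27 (SE 0.04; edgeR adjusted p = 2.31e-09). Fermt2, the kindlin that activates integrins outside blood cells, rose by 0.55 (SE 0.04), as did Vcl, vinculin (SE 0.05), and Ilk, integrin-linked kinase, rose by 0.50 (SE 0.04). Of the 8 lower genes Parvg and the kinase Ptk2 had the smallest adjusted p, at -1.13 (SE 0.11) and -0.36 (SE 0.04). Without control replicate 3 the number of lower genes in this list was 13.

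Of 6 tetraspanins that associate with laminin-binding integrins 1 was higher and 4 lower (83.3% called), with a median of -0.48. Cd151, the closest partner of alpha3 and alpha6 integrins, fell from 252 ± 6.02 to 177 ± 1.22 CPM (SD, n = 3 each), which is a log2 change of -0.51 (SE 0.04; edgeR adjusted p = 7.55e-07). Cd82 was at -0.98 (SE 0.08), Tspan4 at -0.45 (SE 0.04) and Cd81 at -0.39 (SE 0.04). The 1 higher gene, Cd63, was at 0.12 (SE 0.04; edgeR adjusted p = 0.0371). With upper-quartile or total-count scaling, or a filter of at least 1 CPM in 3 libraries, 0 tetraspanins were called higher. The same held when any 1 library except control replicate 3 was left out. Cd151 and Itga3, whose products form a complex, went opposite ways.

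**Figure D4:**
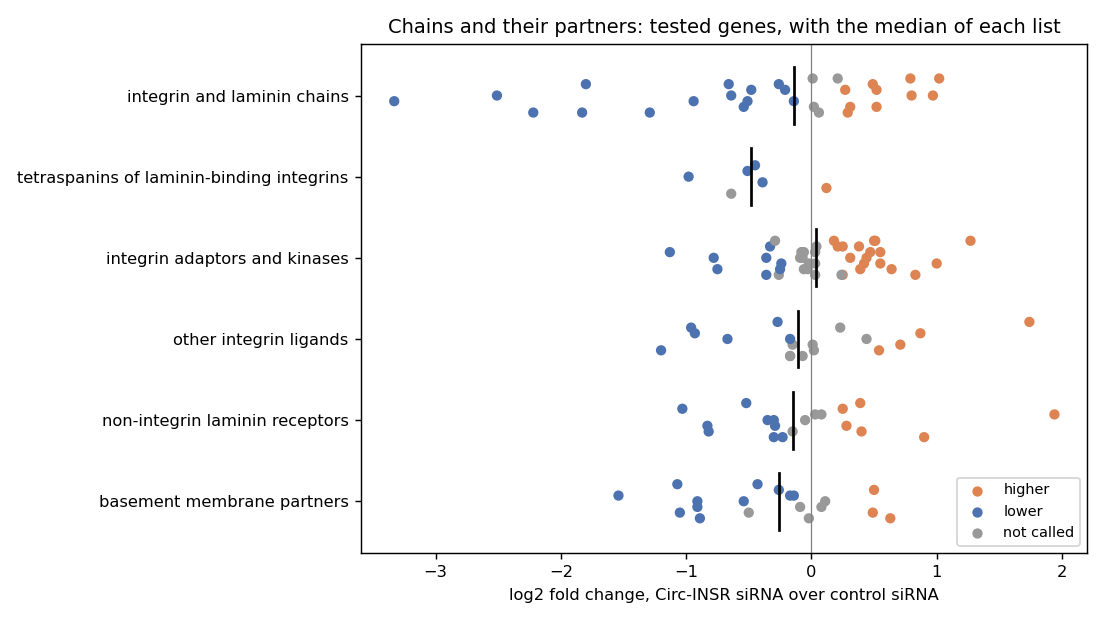
Log2 fold change of every tested gene in the 5 partner lists and of the 29 tested chains, orange where higher, blue where lower and grey where not called, with a black line at each median. Medians run from -0.48 for the tetraspanins to 0.04 for the adaptors and kinases, and each list holds genes called in both directions.

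Markers of the other cell types that share these chains were read in the same libraries, where 28.5% of all genes tested were called higher and 28.5% lower. Endothelial markers summed to 27.3 to 30.7 CPM in control and 82.8 to 86.7 CPM in Circ-INSR siRNA libraries, with Kdr and Tek the 2 called higher of 4 tested of 7, Pecam1, Cdh5, Tie1 and Vwf below 1 CPM on average and Emcn at 0. Smooth muscle and pericyte markers summed to 3664 to 3750.0 CPM and 5907 to 6134 CPM, with 4 of 6 higher and 2 lower, and Acta2, smooth muscle actin, held most of that sum. Fibroblast markers summed to 176 to 193 CPM and 135 to 154 CPM, with 2 higher (Col3a1 and Col1a2) and 1 lower (Col1a1) of 5 tested of 8. Col1a1 held most of that sum, at 169 ± 9.64 and 119.5 ± 7.67 CPM (SD, n = 3 each). Pdgfra, Dcn, Lum and Col1a2 were below 1 CPM on average and Tcf21 was at 0. The part of these genes in the changes of the chains was not tested.

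Some chains share exonic sequence with another annotated gene. Of Itga10's exonic bases 33.5% lie in Gm42957 on the same strand. Gm42957 has no ID in the deposited tables, so its level and its part in the counts of Itga10 are unknown. Of Itga4's exonic bases 8.04% lie in Cerkl on the opposite strand, a gene at 0.0282 CPM on average. For 8 other chains the overlap with any one gene was at most 7.66% of exonic length. The libraries were made with a directional kit, but how the counting used strand is not given here.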

How the data were processed

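The values are raw counts per Ensembl gene that the authors deposited, 1 file per library and not normalized. Per the submitters' processing notes, the build was mm10, and the tools named include STAR 2.5.0c and featureCounts 1.6.4. The gene annotation, the strand setting and the treatment of multiply mapped reads are not given. In every library more genes stood at 2 counts than at 1, so whether 1 count is 1 fragment is unknown, and halved counts were tried.

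Symbols, positions and exonic lengths came from GENCODE M21, in which 36308 of 38087 IDs (95.33%) were found. Genes were kept by filterByExpr (count 10, total 15), libraries were scaled by TMM (factors 0.983 to 1.03), and groups were compared with the robust quasi-likelihood F-test of edgeR 4.0.16 in R 4.3.3, with Benjamini-Hochberg adjustment over all 16666 genes tested and 0.05 as the threshold. The SE was taken as the fold change on the log2 scale over the root of F. The steps were tested on simulated data with 200 changed genes among 16472. Of the 2-fold changes 99% were recovered and of the 1.3-fold changes 65%, with 8 false calls. The simulation had far fewer changed genes than were called here and no shift of long genes in a library, so it does not cover those conditions. Shares were compared with exact permutation tests in scipy 1.17.1.

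The members and lists were chosen with earlier results of these data known. One gene that the rule takes is not reported here and is in no count of chains. Every other member is named, and of each partner list up to 4 genes with the smallest adjusted p, other genes having been chosen after their values were seen. Genes of most similar profile were not sought, since the libraries fall into 2 separate groups. Alternatives were other scalings, filters and tools (DESeq2 1.42.0, limma 3.58.1), libraries left out, the replicate number as a block, removal of a length and GC trend, and halved or thinned counts. A count of 3 corresponds to 0.0389 CPM in the deepest library, which covers counting error only.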

Additional observations from a re-analysis of the deposited data

How the results depend on the processing

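Of all genes tested, 4750 were higher and 4745 lower; with each library left out the counts ran from 4209 to 5150 and from 4148 to 5064. For the chains the same omissions gave 6 to 10 higher and 14 to 16 lower, the count of 6 being without Circ-INSR siRNA replicate 2, and the cause was not tested. Under the other settings 9 to 12 chains were higher and 14 to 16 lower. With no filter on low counts 16 were lower, among them Itgb8 and Itgb2l, which have at most 12 counts in a library. Of 344 member values under settings that keep all libraries 331 kept direction and call, and of 174 with a library left out 155 did. Lamc1 changed sign with upper-quartile scaling (-0.00) and total counts (-0.03), and ran from -0.08 to 0.08 with a library left out. Itga11 changed sign with total counts (-0.02) and ran from -0.17 to 0.28. Total counts moved the median of all genes to -0.049. The 10 share differences of chains with at least 5% of their family kept their sign without division by length and with each library left out. In the replicate block fit the chains had 11 higher and 15 lower, Itga1 being called there (0.22, adjusted p = 0.032), and 12 and 15 with a length and GC trend also removed; same-numbered libraries had deviations correlated at 0.0242, 0.0739 and 0.0356, so the numbers were not taken as pairs.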
